A study of Tigriopus californicus with 9 samples.

Results

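The enzymes that attach ubiquitin to proteins, and those that take it off, were followed in hybrids between 2 populations of the copepod Tigriopus californicus, a crustacean that lives in splash pools on rocky shores. Members were the features whose predicted protein name holds ubiquitin, an E3 ligase, F-box or cullin, leaving out names with proteasome and 1 ubiquitin contig. The rule used names alone and found 184 of 13758 features. By name, 4 are activating (E1) enzymes, 14 are conjugating (E2) enzymes, and the ligases (E3) number 49 of the RING, U-box and UBR types, 20 of the HECT type, 4 of the RBR type, 5 of no stated type and 5 for the ubiquitin-like proteins SUMO and UFM1. A further 41 carry F-box or cullin names, 31 are removal enzymes and 11 are ubiquitin-like or ubiquitin-domain proteins. The names are the only annotation used here, and each contig is called by its SD identifier without its prefix.

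Ubiquitin is a small protein that an E1 enzyme activates with ATP, an E2 enzyme carries and an E3 ligase hands to a chosen target. RING ligases bring the E2 and the target together, HECT and RBR ligases first take ubiquitin onto themselves, and cullins are scaffolds that hold a RING protein and an interchangeable receptor, such as an F-box protein, which picks the target. Chains of ubiquitin send many targets to the proteasome, while deubiquitinating enzymes (removal enzymes) cut ubiquitin off again, and the pathway is known for its part in protein quality control, the cell cycle and germ cell development.

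RNA with a polyA tail was sequenced in 9 libraries: 2 of hybrids with San Diego (SD) mothers and Santa Cruz (SCN) fathers (SDf x SCNm), 2 of the reverse cross (SCNf x SDm), 3 of SD animals and 2 of SCN animals. Hybrids had been bred to generation 3 by mating among hybrids, so each pool holds many different mixtures of the parental genomes, on SD mitochondria in SDf x SCNm and on SCN mitochondria in SCNf x SDm. Between 400 and 500 animals were pooled for each library without regard to stage, parents and hybrids alike, and held for 2 h in a bath at 20 °C, and the labels name no other treatment. The titles set the crosses, although the source label of the SCNf x SDm libraries reads as the reverse. SD replicate 1 and SCN replicate 1 shared a sequencing run, as did SD replicate 3 and SCN replicate 2, whereas SDf x SCNm replicate 2 shared a run with both SCNf x SDm libraries. No run held parents and hybrids together, so that a run effect and hybrid origin cannot be told apart. Nothing in the labels says that replicates were separate cultures, so a p-value speaks only to the spread among these libraries, and that spread may be technical. In whole animals, fewer cells of a type and less RNA per cell cannot be told apart.

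Levels are in RPKM, the reads on a contig per kilobase of its length and per M reads of the library, and a log2 difference is on the log2(RPKM + 1) scale. A member was called where limma's adjusted p, over all 13758 features, was under 0.05. Reads recovered from the RPKM steps numbered 4.47 and 13.7 M in SDf x SCNm, 12.7 and 11.7 M in SCNf x SDm, 15.7, 4.99 and 0.884 M in SD and 3.52 and 1.42 M in SCN. The median member held 76 reads in SD replicate 3 and 89 reads in SCN replicate 2, against 223.5 to 1210 reads in the other libraries, and 3 members were at 0 in each of those shallow libraries. All 184 members passed the filter on low values, a mean of at least 1 RPKM, which removed 0 features. The median member averaged 43.5 RPKM over the 9 libraries, where the median of all features was 26.2 RPKM.

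SD libraries carried the highest levels of these enzymes. Members took 0.803% and 0.801% of summed RPKM in SDf x SCNm, 0.787% and 0.614% in SCNf x SDm, 1.21%, 1.27% and 1.10% in SD and 0.753% and 0.770% in SCN, so that all 3 SD libraries stood above the other 6. The most abundant member, an E2 enzyme (Contig529), did not make this order by itself: without it the shares were 0.570% to 0.736% in hybrids, 0.998% to 1.10% in SD and 0.706% and 0.726% in SCN. Relative to each library's median feature, the median member lay 0.30 to 0.58 higher on the log2 scale in hybrids, 0.86 to 1.05 higher in SD, 0.53 higher in SCN replicate 1 and 0.93 higher in SCN replicate 2. SCN replicate 2 therefore stood with SD on this measure and with the hybrids in its share of summed RPKM. Its median feature was the lowest of the 9 libraries, at 4.11 on the log2 scale against 4.61 to 4.79 in the others. Its median member, at 5.05, lay below the 5.60 to 5.71 of SD and within the 4.93 to 5.38 of hybrids.

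**Figure D1:**
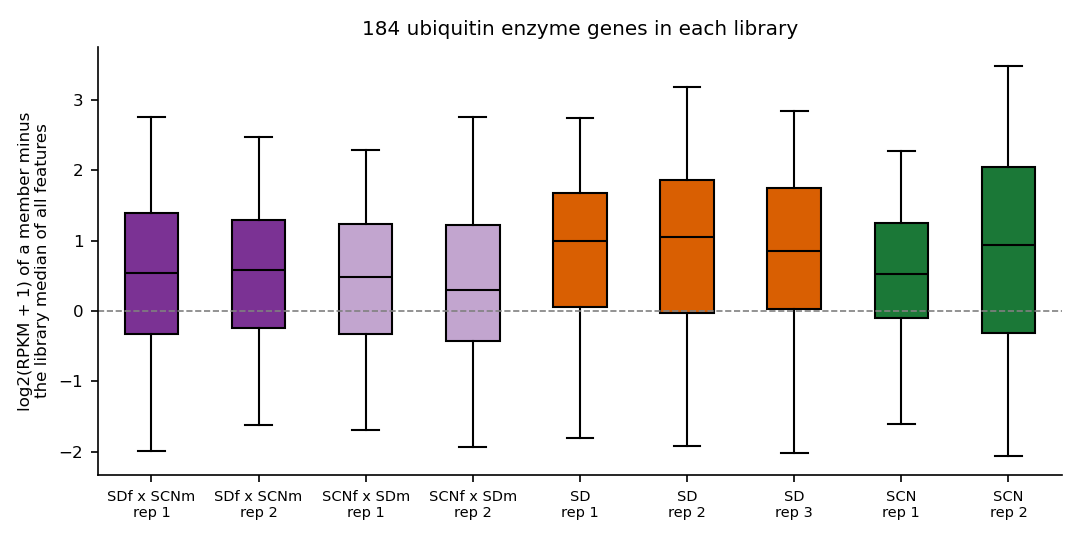
Levels of the 184 members in each library, as log2(RPKM + 1) minus the median of all features in that library (vertical axis). Boxes show quartiles and the median, whiskers the 5th and 95th percentiles. The medians of the hybrid libraries lie at 0.30 to 0.58, those of SD at 0.86 to 1.05, and those of SCN at 0.53 and 0.93.

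Over the 5 comparisons, hybrids against SD gave the only members called by limma. The comparison, which asks how the mixed genome differs from 1 parental population, sets all 4 hybrid libraries against the 3 SD libraries. It had 2 members called higher and 1 called lower in hybrids, where 1.6% of all features were called, 1.52% higher and 0.08% lower. Voom on recovered reads called the same 3 members, where it called 3.13% of features. All are ligase components: 2 ligases named after the SIAH family, siah1 (Contig1903) and sinat3 (Contig37154), and an F-box protein with leucine-rich repeats (Contig15158). At an unadjusted p under 0.05, 8 members lay higher and 39 lower, or 4.35% and 21.2%, where 12% and 7.09% of all features did so.

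SIAH ligases are RING proteins named after the Drosophila gene sina, which photoreceptor fate needs, and they send bound proteins to the proteasome. The siah1 contig (Contig1903) had 149.8 and 123 RPKM in SDf x SCNm, 115 and 166 RPKM in SCNf x SDm, 490.2, 332 and 633 RPKM in SD and 96.9 and 139 RPKM in SCN. Every hybrid library lay below every SD library, and the hybrid and SCN ranges overlapped. Its level fell to 139 ± 23.5 RPKM (s.d., n = 4) in hybrids, against 485 ± 151 RPKM in SD (n = 3), a 3.40-fold difference (log2 -1.77, SE 0.32, adjusted p = 0.0317). The same contig was 4.01-fold higher in SD than in SCN without passing (log2 2.00, adjusted p = 0.0612), and its SD minus SCN difference was 2.33 within the first shared run and 2.18 within the second.

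The sinat3 contig (Contig37154), named after a plant member of the family, had 86.5 and 67.4 RPKM in SDf x SCNm, 44.3 and 65.5 RPKM in SCNf x SDm, 5.72, 5.26 and 7.14 RPKM in SD and 64.8 and 5.70 RPKM in SCN. It was low in all 3 SD libraries and in 1 of the 2 SCN libraries, and high in the other SCN library and all hybrids. It rose to 65.9 ± 17.3 RPKM (s.d., n = 4) in hybrids, against 6.04 ± 0.976 RPKM in SD (n = 3; log2 3.22, SE 0.63, adjusted p = 0.0386). The low values rest on 25, 7 and 2 reads in SD and 3 reads in SCN replicate 2, where the deposited values also contain an added constant of 18.4, 5.51, 1.12 and 1.35 reads. With that constant taken off, the adjusted p was 0.0509.

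The F-box contig (Contig15158) had 138 and 133 RPKM in SDf x SCNm, 103 and 237 RPKM in SCNf x SDm, 22.3, 50.7 and 16.7 RPKM in SD and 38.4 and 118 RPKM in SCN. All hybrid libraries exceeded all SD libraries, but SCN spanned the gap. It rose to 153 ± 58.1 RPKM (s.d., n = 4) in hybrids, against 29.9 ± 18.2 RPKM in SD (n = 3; log2 2.40, SE 0.50, adjusted p = 0.0468). Its coding length of 186 bases is short beside the 1443 bases of the median member, and its SD values rest on 54, 46 and 2 reads. With the constant taken off, the adjusted p was 0.0624, and the call was also lost with median-of-ratios scaling (adjusted p = 0.0616) and with a pseudocount of 0.1 (adjusted p = 0.0521).

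These calls sat close to the threshold and depended on single SD and hybrid libraries. Leaving out SD replicate 1 or SD replicate 3 gave 0 called members, where 0.298% and 0.291% of all features were called, against 1.6% in the main fit. Leaving out any 1 hybrid library also gave 0, where 0.109% to 0.291% of all features were called. Leaving out SD replicate 2 left 1 (siah1), where 0.516% of all features were called. Calls were thus lost over the whole table and not in the members alone. The SCN libraries enter this comparison only through the variance shared by all groups. Leaving out either of them did not change the log2 differences of the called members. Such a fit keeps 1 SCN library, so its count of calls is not read as a result. Over 20 alternative settings each kept its direction, at log2 -2.01 to -1.55 for siah1, 2.65 to 4.11 for sinat3 and 2.08 to 2.85 for the F-box contig. No tally of passes is given, since some of these fits leave 1 library in a group and the one without the filter repeats the main fit. With replicate number as a block, limma gave adjusted p values of 0.180, 0.104 and 0.0977 in that order, and the calls were lost.

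**Figure D2:**
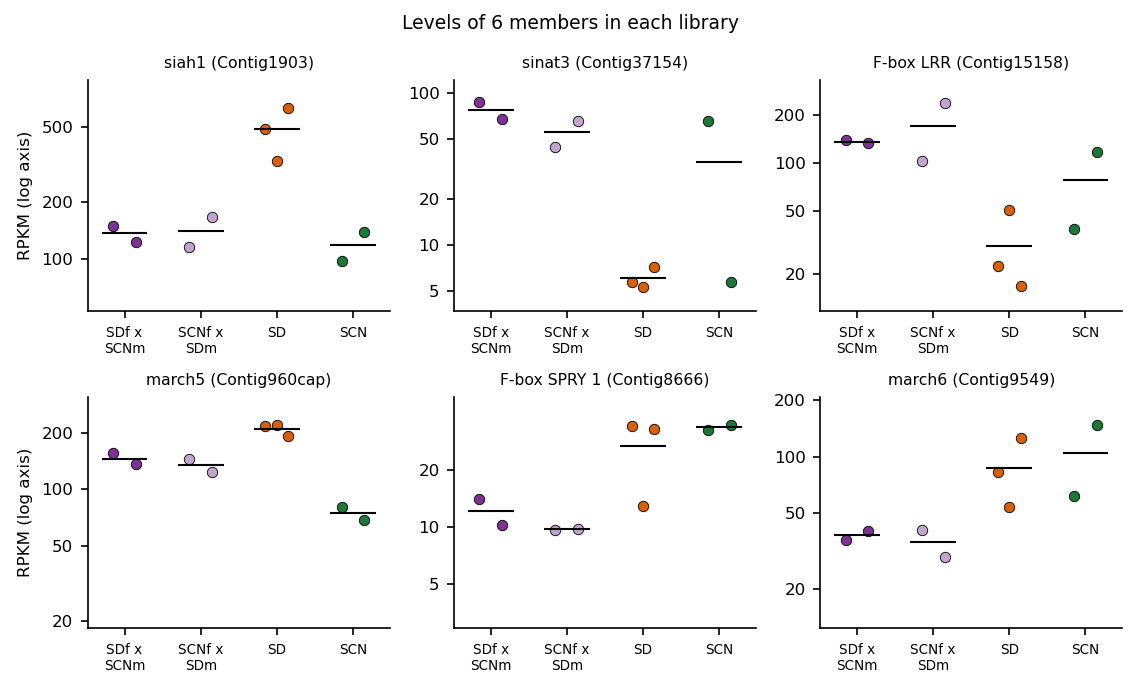
RPKM (log axis) of 6 members in each library, with the arithmetic mean of each group as a bar and 1 point per library. The upper row shows the 3 called members, whose hybrid and SD points do not overlap. The lower row shows march5, F-box SPRY 1 and march6, which did not pass in any comparison.

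Most other members leaned the opposite way from sinat3 and the F-box contig, with lower values in hybrids than in SD. Of 184 members, 42 (22.8%) lay above 0 and the median member was at log2 -0.37, while 51.3% of all features lay above 0 and their median was at 0.02. Hybrid and SD libraries did not overlap in 9 members that were higher in hybrids, or 4.89%, where 16.5% of all features did so, and in 68 that were lower, or 37%, where 13.3% did so. The median member lay 0.39 below the median of all features, with a range of -0.44 to -0.33 over the alternatives. HECT ligases (median -0.60), the 5 ligases of no stated type (-0.76) and RBR ligases (-0.58) were lowest, E2 enzymes (-0.31), RING-type ligases (-0.33) and removal enzymes (-0.43) lay between, and F-box and cullin proteins (-0.11) and E1 enzymes (-0.12) were nearest to 0.

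**Figure D3:**
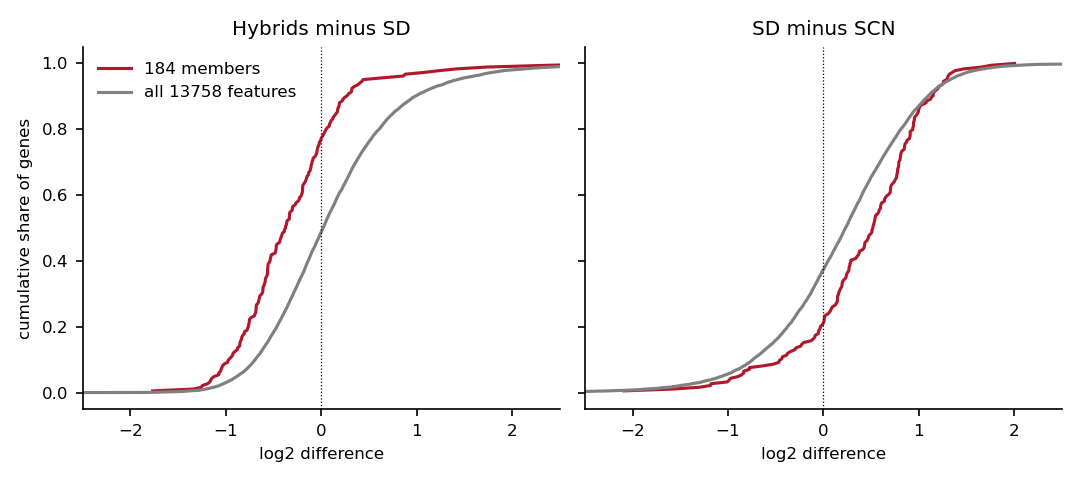
Cumulative share of genes (vertical axis) against the log2 difference between hybrids and SD (left) and between SD and SCN (right), for the 184 members in red and all 13758 features in grey. The red line lies left of the grey line in the left panel (medians -0.37 and 0.02) and mostly right of it in the right panel (medians 0.52 and 0.23).

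SD against SCN asks how the parental populations differ. Limma called 0 members, where 0.429% of all features were called, and voom also called 0, where it called 0.255% of features. At an unadjusted p under 0.05, 41 members lay higher and 5 lower in SD, where 12.3% and 5.25% of all features did so. The median member stood 0.52 higher in SD (log2) and the median of all features 0.23 higher, a gap of 0.29. Of members, 78.8% lay above 0, where 62.5% of all features did so. The parental libraries did not overlap in 56 members that were higher in SD (30.4%, where 19.8% of all features did so) and in 9 that were lower (4.89%, where 9.17% did so). Within the first shared run the median member was 0.34 higher in SD and the median feature 0.02, and within the second the values were 0.66 and 0.46. Median-of-ratios scaling shifted the median feature to -0.02 and the median member to 0.24, so that the gap, at 0.27, hardly moved. Without SCN replicate 1, which left 1 SCN library, the gap was 0.06.

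All 3 SD libraries lay above all 6 others in 38 members, or 20.7%, where 8.33% of all features did so, and below all 6 in 3 members, or 1.63%, where 4.85% did so. The 38 include 7 of 20 HECT ligases, 10 of 31 removal enzymes, 4 of 5 ligases of no stated type, 8 of 49 RING-type ligases, 5 of 41 F-box and cullin proteins, 2 of 14 E2 enzymes and 0 of 4 E1 enzymes. Since hybrids against SD and SD against SCN share the SD libraries, their values for a member are not independent.

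**Figure D4:**
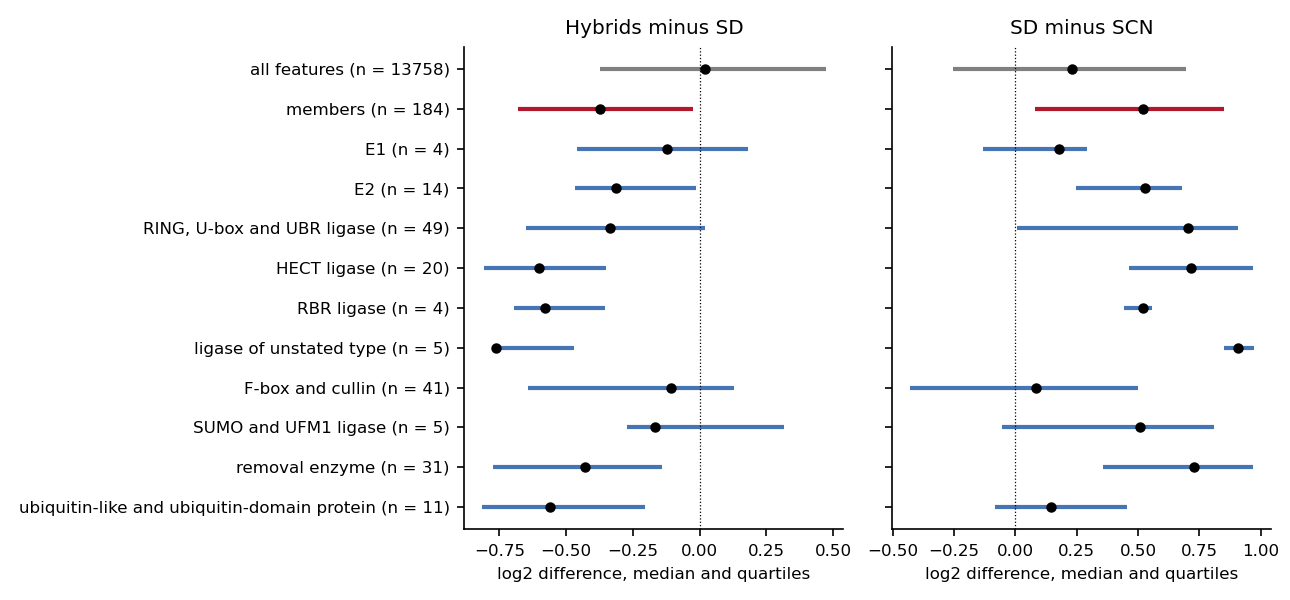
Median (point) and quartiles (line) of the log2 difference between hybrids and SD (left) and between SD and SCN (right), for all features, all members and each role. The medians of HECT ligases, at -0.60 and 0.72, lie farther from 0 than those of F-box and cullin proteins, at -0.11 and 0.08.

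The midparent is the average of both parental group means in log2 units, and hybrids against it asks whether hybrids depart from an additive expectation. Limma called 0 members, where 0.8% of all features were called, and voom on recovered reads called 1, which was higher in hybrids, where it called 1.14% of features. At an unadjusted p under 0.05, 5 members lay above and 18 below the midparent, or 2.72% and 9.78%, where 13.1% and 3.4% of all features did so. All hybrid libraries stood outside the parental range in 0 members on the high side and 5 on the low side (2.72%), where 5.86% and 1.5% of all features did so. The median member lay at log2 -0.17 while the median feature lay at 0.15, and 70 members were above 0 (38%, where 62.1% of all features were). By means, 67 members (36.4%) lay below both parents in hybrids, 82 (44.6%) between them and 35 (19.0%) above both, where the shares of all features were 20.4%, 40.01% and 39.6%. The median member lay 0.32 below the median feature, and 0.19 below it without SCN replicate 2. The gap was -0.41 without SCN replicate 1, and both of these fits left 1 SCN library. Leaving out SD replicate 2 brought 1 call, below the midparent, where 0.698% of all features were called. The member called by voom was sinat3 (Contig37154), at log2 2.43 with an adjusted p of 0.0794 in limma.

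Hybrids against SCN gave 0 called members by limma, where 0.0145% of all features were called, and 0 by voom. At an unadjusted p under 0.05, 11 members lay higher and 9 lower in hybrids, where 12.5% and 2.77% of all features did so. The median member was 0.11 higher in hybrids, below the 0.29 of the median feature. The sign was not stable, as the median member turned to -0.09 with quantile normalization, -0.19 with median-of-ratios scaling and -0.03 without SCN replicate 2. Its gap to the median feature was -0.19, beside -0.39 without SCN replicate 1 and -0.04 without SCN replicate 2. Groups did not overlap in 20 members higher in hybrids (10.9%, where 18.4% of all features did so) and in 19 lower (10.3%, where 7.23% did so). A fit without either SCN library leaves 1 library in that group, and counts of members called in it are not read as results.

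The crosses, which differ in the mitochondria and cytoplasm they received, were not separated by any call. Limma called 0 members and 0 features (0%), voom called 0 members, and 0 members had an unadjusted p under 0.05, where 0.0945% of all features lay higher and 0.189% lower at that level. Even so, 152 of 184 members (82.6%) were above 0 in SDf x SCNm minus SCNf x SDm, where 56.7% of all features were. The members had a median of 0.18 against 0.05 for all features, and their differences ran from -0.56 to 0.59. The libraries did not overlap in 48 members higher in SDf x SCNm (26.1%, where 16.3% of all features did so) and in 5 lower (2.72%, where 12.5% did so). Within the run that SDf x SCNm replicate 2 shared with both SCNf x SDm libraries, the median member lay at 0.16 and the median feature at 0.05. Without SCNf x SDm replicate 2, the library with the lowest share of these enzymes, 105 of 184 members were above 0 and the median was 0.06. The median feature then lay at -0.02, so that the gap was 0.08, beside 0.13 with all libraries.

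Activating enzymes start the pathway, and their 4 contigs were not called in any comparison. The abundant ubiquitin E1 (Contig894) had 239 and 223 RPKM in SDf x SCNm, 244 and 189 RPKM in SCNf x SDm, 339.9, 348 and 385 RPKM in SD and 147 and 386 RPKM in SCN. All hybrid libraries lay below all SD libraries (log2 -0.68, adjusted p = 0.328), while SCN held both the lowest and the highest value. A second contig of that name (Contig33420) was scarce, between 1.45 and 6.90 RPKM over the 9 libraries. The autophagy enzyme ATG7-like (Contig11659), which activates ubiquitin-like proteins of the autophagosome, ranged from 24.8 to 70.3 RPKM.

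Conjugating enzymes held the most abundant member. Contig529, named only as an E2, had 914 and 891 RPKM in SDf x SCNm, 1023 and 664 RPKM in SCNf x SDm, 1243, 2325 and 1252 RPKM in SD and 559.5 and 647 RPKM in SCN. The 3 SD values were the highest (hybrids against SD log2 -0.83, adjusted p = 0.241; SD against SCN log2 1.35, adjusted p = 0.169). All 14 E2 contigs had a higher mean in SD than in SCN, where 62.5% of all features did so, with log2 differences of 0.06 to 1.35. In hybrids against SD, 11 of the 14 lay below 0, and 0 were called in either comparison. The next E2 contigs were the E2-24 kDa contig (Contig7627) and E2 R2 (Contig2112), picked after values were seen, with means of 202 and 191 RPKM over the 9 libraries. E2 C (Contig3254), also picked after values were seen, serves the anaphase-promoting complex, the ligase that drives exit from mitosis. It had 98.1 and 70.03 RPKM in SDf x SCNm, 73.4 and 62.5 RPKM in SCNf x SDm, 139, 146 and 197 RPKM in SD and 39.1 and 171 RPKM in SCN. The hybrid values were all below the SD values, and SCN spanned both (hybrids against SD log2 -1.07, adjusted p = 0.232).

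Names of the SIAH family belong to 8 contigs, 6 of them siah1 or siah1-like, with sina (Contig15278) and sinat3 completing the set. They lay on both sides of SD: hybrid and SD libraries did not overlap in 3 contigs that were higher in hybrids and in 3 that were lower, where 16.5% and 13.3% of all features did so. Their means over the 9 libraries ran from 9.48 to 249.6 RPKM, with Contig1903 highest. A second siah1 contig (Contig1262cap) had 91.5 and 63.5 RPKM in SDf x SCNm, 62.9 and 56.1 RPKM in SCNf x SDm, 159, 118 and 228 RPKM in SD and 90.7 and 289.7 RPKM in SCN. Its hybrid values were below all SD values as in Contig1903 (log2 -1.26, adjusted p = 0.147), but here the SD values lay within the range of SCN.

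The 2 scarcest family members had higher values in hybrids than in SD. A siah1-like contig (Contig620cap) had 9.14 and 13.2 RPKM in SDf x SCNm, 16.6 and 16.8 RPKM in SCNf x SDm, 6.52, 4.68 and 2.72 RPKM in SD and 12.4 and 3.16 RPKM in SCN. Its hybrid values all exceeded the SD values (log2 1.43, adjusted p = 0.124), and its SCN values were as far apart as the groups. Another siah1 contig (Contig52306) had 15.7 and 13.9 RPKM in SDf x SCNm, 11.6 and 8.78 RPKM in SCNf x SDm, 7.53, 6.14 and 5.07 RPKM in SD and 8.89 and 7.78 RPKM in SCN, again with hybrids above SD (log2 0.88, adjusted p = 0.149). The SD values rest on 153, 33 and 3 reads in Contig620cap and on 62, 15 and 2 reads in Contig52306, beside the added constant. Each held 7 reads in SCN replicate 2. The siah1-like Contig2110cap had 29.6 and 43.4 RPKM in SDf x SCNm, 55.8 and 31.1 RPKM in SCNf x SDm, 37.3, 45.3 and 28.5 RPKM in SD and 30.2 and 15.8 RPKM in SCN. Here the hybrid range overlapped that of SD. The remaining siah1-like contig (Contig14633) and sina, picked after values were seen, averaged 12.3 and 59.2 RPKM, with hybrid against SD differences of log2 -0.30 and -0.33. Reads shared by near-identical contigs may have been split or assigned either way in the authors' counting, of which no description was at hand, so that values within the family are uncertain.

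**Figure D5:**
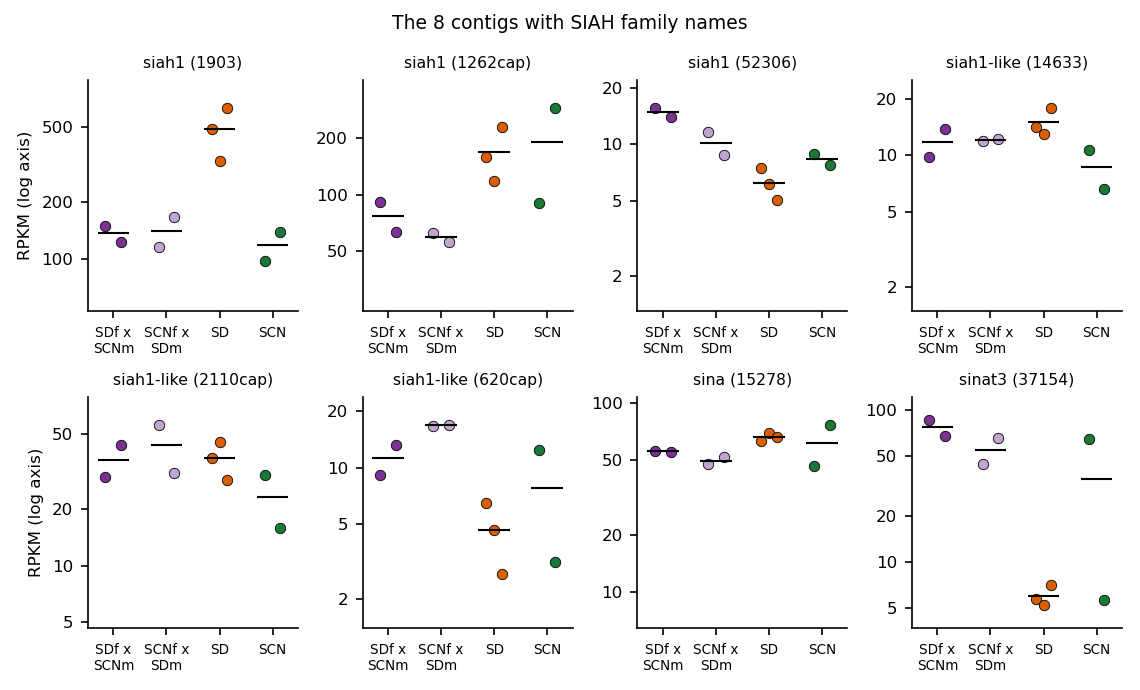
RPKM (log axis) of the 8 SIAH family contigs in each library, with 1 point per library and bars at the arithmetic mean of each group. In Contig1903 the SD points (332 to 633 RPKM) lie above all others, and in sinat3 (Contig37154) the SD points and 1 SCN point lie at 5.26 to 7.14 RPKM while all hybrid points lie at 44.3 RPKM or more.

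Among the 49 RING, U-box and UBR ligases, SIAH contigs included, 14 lay above 0 in hybrids against SD and 35 below, with siah1 and sinat3 as the called members. In SD against SCN, 38 of 49 lay above 0 (77.6%, where 62.5% of all features did so), with a median of 0.71 beside 0.23 for all features. The roles given below are those of the mammalian namesakes. The ligase march5 (Contig960cap), which acts at the mitochondrial outer membrane, had 155 and 136 RPKM in SDf x SCNm, 145 and 124 RPKM in SCNf x SDm, 218, 219.9 and 191 RPKM in SD and 80.2 and 69.2 RPKM in SCN. The order SD, hybrids, SCN held without overlap, at log2 1.48 for SD against SCN (SE 0.31, adjusted p = 0.0731) and -0.58 for hybrids against SD (adjusted p = 0.253). The ligase march6 (Contig9549), one of the endoplasmic reticulum that clears misfolded proteins, had 36.4 and 40.5 RPKM in SDf x SCNm, 40.99 and 29.4 RPKM in SCNf x SDm, 83.3, 53.9 and 125 RPKM in SD and 61.6 and 148 RPKM in SCN. Every hybrid library was below every parental library, the midparent difference being log2 -1.26 (SE 0.35, adjusted p = 0.123).

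A second ligase of the endoplasmic reticulum, amfr (Contig1306cap), had 186 and 138 RPKM in SDf x SCNm, 99.6 and 132 RPKM in SCNf x SDm, 202, 171 and 302 RPKM in SD and 165 and 172 RPKM in SCN. It stood higher in SDf x SCNm without passing (log2 0.48, adjusted p = 1). So did march2 (Contig5814, log2 0.47), a membrane ligase of the endocytic route, and rififylin (Contig19309, log2 0.43), an endosome-bound ligase, each with an adjusted p of 1. The mitochondrial ligase MUL1-like (Contig43533) had 13.7 and 7.01 RPKM in SDf x SCNm, 7.41 and 9.17 RPKM in SCNf x SDm, 5.52, 2.68 and 2.17 RPKM in SD and 8.70 and 32.6 RPKM in SCN. SD held its lowest values and SCN replicate 2 its highest (SD against SCN log2 -2.09, adjusted p = 0.133), with 31, 2 and 0 reads behind the SD values.

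A nuclear ligase and a cell junction ligase had low values in SCN. The ring1-like contig (Contig221), named after the Polycomb ligase of histone H2A, had 70.2 and 66.6 RPKM in SDf x SCNm, 50.4 and 56.6 RPKM in SCNf x SDm, 58.96, 64.4 and 44.8 RPKM in SD and 41.7 and 6.47 RPKM in SCN. SCN replicate 2, with 7 reads, was far below all other libraries, and the hybrid difference from SCN was log2 1.78 (SE 0.57, adjusted p = 0.237). Hakai (Contig6395), known from mammals as a ligase for E-cadherin, had 235 and 242 RPKM in SDf x SCNm, 196 and 251 RPKM in SCNf x SDm, 178, 245 and 189 RPKM in SD and 86.2 and 161 RPKM in SCN. Both SCN values were below every other library (hybrids against SCN log2 0.96, adjusted p = 0.273).

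Hybrids had lower values than SD in nearly every HECT ligase. Of 20, 19 lay below 0 in hybrids against SD, 11 did not overlap (55%, where 13.3% of all features were lower without overlap) and 5 were lower at an unadjusted p under 0.05 (25%, where 7.09% of all features were), while 0 were called by limma. Smurf1 (Contig5805), which limits BMP signalling in animals, had 25.3 and 39.5 RPKM in SDf x SCNm, 37.97 and 18.5 RPKM in SCNf x SDm, 77.03, 73.95 and 60.1 RPKM in SD and 27.4 and 34.7 RPKM in SCN. The SD values were at least 60.1 RPKM and all others at most 39.5 RPKM (hybrids against SD log2 -1.24, SE 0.33, adjusted p = 0.0834). A G2/M phase-specific ligase (Contig4732) had 30.8 and 38.01 RPKM in SDf x SCNm, 40.6 and 24.03 RPKM in SCNf x SDm, 78.2, 85.1 and 62.5 RPKM in SD and 25.8 and 30.5 RPKM in SCN. It was lower in hybrids than in SD by log2 -1.17 (SE 0.29, adjusted p = 0.0747) and higher in SD than in SCN by log2 1.38 (adjusted p = 0.117). Another pair of contigs with that name (Contig2817 and Contig3170), picked after values were seen, also lay below SD in all hybrid libraries, at log2 -0.83 and -0.65.

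The most abundant HECT ligase, NEDD4-like (Contig303cap), of a family that sends membrane channels to degradation, had 63.97 and 108 RPKM in SDf x SCNm, 102 and 67.2 RPKM in SCNf x SDm, 106, 108 and 105 RPKM in SD and 97.6 and 60.4 RPKM in SCN. Hybrid and SD ranges overlapped, and the difference was log2 -0.36 (adjusted p = 0.575). In SD against SCN, 19 of the 20 HECT contigs lay above 0 (95%, where 62.5% of all features did so), with a median of 0.72 beside 0.23 for all features. Suppressor of deltex (Contig1565cap), a ligase of the Notch pathway named here after values were seen, was the exception at log2 -0.23.

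The 4 RBR ligases and the 5 ligases of no stated type leaned the same way. The rnf19a-like contig (Contig313cap), the most abundant RBR ligase, had 72.8 and 68.2 RPKM in SDf x SCNm, 78.3 and 55.4 RPKM in SCNf x SDm, 126, 146 and 129 RPKM in SD and 46.1 and 188 RPKM in SCN. Hybrids were below SD in all libraries (log2 -0.96, adjusted p = 0.258). The most abundant ligase of no stated type (Contig3352cap) had 69.3 and 55.8 RPKM in SDf x SCNm, 59.9 and 53.2 RPKM in SCNf x SDm, 107, 87.7 and 111 RPKM in SD and 57.4 and 57.5 RPKM in SCN. All SD values were above all others (hybrids against SD log2 -0.76, SD against SCN log2 0.80, adjusted p = 0.156 and 0.229), a pattern shared by 4 of these 5 contigs.

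F-box proteins and cullins form the receptors and scaffolds of cullin-RING ligases. In SD against SCN they lay on both sides of 0, with a median below that of all features, and they mostly lay lower in hybrids than in SD. Of 41 contigs, 11 lay above 0 in hybrids against SD, 1 was called higher and 0 lower. Those libraries did not overlap in 3 that were higher and 11 that were lower (7.32% and 26.8%, where 16.5% and 13.3% of all features did so). At an unadjusted p under 0.05, 1 lay above and 8 below the midparent (2.44% and 19.5%, where 13.1% and 3.4% of all features did so). In SD against SCN 22 lay above 0 (53.7%, where 62.5% of all features did so), with a median of 0.08 beside 0.23 for all features. FBXL7, an F-box protein with leucine-rich repeats (Contig968), had 25.2 and 36.2 RPKM in SDf x SCNm, 39.9 and 22.2 RPKM in SCNf x SDm, 84.1, 64.9 and 85.1 RPKM in SD and 25.96 and 39.00 RPKM in SCN. The SD values were the highest (hybrids against SD log2 -1.34, SE 0.32, adjusted p = 0.0654). An FBXL7-like contig (Contig25533) had 13.7 and 13.1 RPKM in SDf x SCNm, 14.1 and 16.6 RPKM in SCNf x SDm, 9.24, 8.19 and 5.35 RPKM in SD and 15.4 and 16.00 RPKM in SCN, with SD below hybrids and SCN (hybrids against SD log2 0.86, SD against SCN log2 -0.99, adjusted p = 0.161 and 0.209). A further leucine-rich repeat contig (Contig4950) had 18.6 and 14.7 RPKM in SDf x SCNm, 20.2 and 21.1 RPKM in SCNf x SDm, 6.40, 7.37 and 11.6 RPKM in SD and 22.6 and 10.4 RPKM in SCN, and again hybrids stood above SD (log2 1.08, adjusted p = 0.141).

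F-box SPRY domain protein 1 (Contig8666), whose Drosophila and mouse relatives act at synapses, had 13.98 and 10.2 RPKM in SDf x SCNm, 9.64 and 9.74 RPKM in SCNf x SDm, 34.3, 12.9 and 33.2 RPKM in SD and 32.6 and 34.7 RPKM in SCN. Hybrids lay below SCN in every library and overlapped SD through its second replicate (hybrids against midparent log2 -1.34, SE 0.33, adjusted p = 0.0922). An F-box domain protein (Contig3148cap) had 19.5 and 16.98 RPKM in SDf x SCNm, 15.2 and 15.01 RPKM in SCNf x SDm, 26.00, 19.7 and 28.9 RPKM in SD and 25.3 and 50.00 RPKM in SCN. Its hybrid values were all below the parental ones (midparent log2 -0.80, adjusted p = 0.2). The F-box WD contig named 1a isoform 2 (Contig73355), a name of the beta-TrCP receptors, had 7.75 and 7.99 RPKM in SDf x SCNm, 8.61 and 10.5 RPKM in SCNf x SDm, 9.41, 5.11 and 13.7 RPKM in SD and 16.2 and 27.5 RPKM in SCN. It was highest in SCN (hybrids against SCN log2 -1.20, SD against SCN log2 -1.18, adjusted p = 0.263 and 0.221).

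FBXO31 (Contig12914), which marks cyclin D1 for destruction in mammals, had 30.6 and 32.3 RPKM in SDf x SCNm, 29.6 and 33.00 RPKM in SCNf x SDm, 26.9, 35.4 and 21.5 RPKM in SD and 26.9 and 7.16 RPKM in SCN. Both the SCN spread and the hybrid difference from SCN were wide (log2 1.10, adjusted p = 0.31). FBXO32-like (Contig5325), named after the muscle atrophy factor of vertebrates, had 20.2 and 14.8 RPKM in SDf x SCNm, 13.1 and 13.5 RPKM in SCNf x SDm, 17.1, 11.2 and 12.3 RPKM in SD and 23.6 and 31.3 RPKM in SCN, with SD below SCN (log2 -0.97, adjusted p = 0.212).

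Of the 3 cullins, cullin-3 (Contig1315), the scaffold for BTB-domain receptors, had 73.6 and 78.02 RPKM in SDf x SCNm, 85.5 and 59.1 RPKM in SCNf x SDm, 145, 122 and 149 RPKM in SD and 83.4 and 214 RPKM in SCN. Its hybrid values lay below all SD values and its midparent difference was log2 -0.88 (SE 0.31, adjusted p = 0.199). Cullin-1 (Contig74cap), the scaffold for F-box proteins, averaged 116 ± 9.91 RPKM in hybrids, 118 ± 12.5 RPKM in SD and 106 ± 60.2 RPKM in SCN (s.d., n = 4, 3 and 2). Cullin-2 (Contig3994), the scaffold for VHL-type receptors, averaged 111 ± 12.9 RPKM in hybrids, 118 ± 12.1 RPKM in SD and 126 ± 6.20 RPKM in SCN. Neither differed beyond the spread between libraries (hybrids against SD log2 -0.03 and -0.08). CAND1 (Contig525cap), which exchanges the receptors on cullins and was the most abundant of this class, had 89.8 and 115 RPKM in SDf x SCNm, 130.0 and 61.5 RPKM in SCNf x SDm, 188, 222 and 149 RPKM in SD and 105 and 79.6 RPKM in SCN. Hybrids lay below SD in all libraries (log2 -0.94, adjusted p = 0.169).

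Removal enzymes were lower in hybrids than in SD in 26 of 31 contigs, and 0 were called by limma. Libraries did not overlap in 12 of these (38.7%, where 13.3% of all features were lower without overlap), and 8 had an unadjusted p under 0.05 (25.8%, where 7.09% of all features did so). In SD against SCN, 30 of 31 lay above 0 (96.8%, where 62.5% of all features did so). Their median was 0.73, beside 0.23 for all features, and 14 were higher without overlap (45.2%, where 19.8% of all features were). USP29 (Contig4532), a ubiquitin-specific protease, had 37.1 and 47.3 RPKM in SDf x SCNm, 43.9 and 26.6 RPKM in SCNf x SDm, 70.6, 72.4 and 97.7 RPKM in SD and 39.3 and 31.5 RPKM in SCN. The SD values were all above the others (hybrids against SD log2 -1.05, SE 0.30, adjusted p = 0.101). USP3-like (Contig6162), named after a histone deubiquitinase, had 95.9 and 92.99 RPKM in SDf x SCNm, 85.9 and 60.6 RPKM in SCNf x SDm, 143, 186 and 132 RPKM in SD and 68.3 and 65.04 RPKM in SCN. It followed the same order (hybrids against SD log2 -0.88, SD against SCN log2 1.18, adjusted p = 0.128 and 0.136).

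USP48 (Contig23754) had 16.7 and 28.4 RPKM in SDf x SCNm, 24.2 and 15.1 RPKM in SCNf x SDm, 26.5, 24.8 and 29.96 RPKM in SD and 14.01 and 7.38 RPKM in SCN. SCN held its lowest values (hybrids against SCN log2 0.94, SD against SCN log2 1.32, adjusted p = 0.307 and 0.165). The most abundant removal enzyme, UCHL3 (Contig6878), which frees ubiquitin from small adducts, had 283 and 158 RPKM in SDf x SCNm, 132 and 191 RPKM in SCNf x SDm, 166, 121 and 173 RPKM in SD and 182 and 123 RPKM in SCN. The hybrid range overlapped both parents (log2 0.27 against SD).

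Ubiquitin-like modifiers and their ligases included the second most abundant member. The SUMO precursor (Contig2815) had 413 and 335 RPKM in SDf x SCNm, 269 and 323 RPKM in SCNf x SDm, 392, 484 and 448 RPKM in SD and 194 and 510.2 RPKM in SCN. SCN held its lowest and its highest value, and hybrids against SD gave log2 -0.41 (adjusted p = 0.579). UFM1 (Contig12431), a modifier that acts on ribosomes at the endoplasmic reticulum, had 288 and 174 RPKM in SDf x SCNm, 197 and 359.9 RPKM in SCNf x SDm, 75.1, 113 and 44.7 RPKM in SD and 49.9 and 202 RPKM in SCN. All hybrid libraries exceeded all SD libraries, and SCN spanned both (hybrids against SD log2 1.74, SE 0.51, adjusted p = 0.112). At 114 bases UFM1 was the shortest member. Its SD values rest on 131, 65 and 4 reads and its SCN values on 19 and 39 reads, beside the added constant. The SUMO ligase pias1-like (Contig510) had 72.7 and 77.3 RPKM in SDf x SCNm, 71.3 and 63.9 RPKM in SCNf x SDm, 97.3, 130.4 and 87.3 RPKM in SD and 52.7 and 54.5 RPKM in SCN. SD stood above every other library (hybrids against SD log2 -0.53, SD against SCN log2 0.94, adjusted p = 0.308 and 0.188).

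Between the crosses, the E2 enzyme E2-17 (Contig7782) and the siah1-like Contig2110cap were among the members lowest in SDf x SCNm relative to SCNf x SDm, at log2 -0.25 and -0.21, and both signs turned when a single hybrid library was left out, as detailed with the alternatives. E2-17 had 38.3 and 70.96 RPKM in SDf x SCNm, 72.5 and 53.5 RPKM in SCNf x SDm, 49.3, 112 and 42.4 RPKM in SD and 33.02 and 55.4 RPKM in SCN. The ranges of the crosses overlapped.

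Other genes of the pathway gave 0 called features by limma in all 5 comparisons: 28 proteasome subunits and partners, 18 ubiquitin-like modifier genes, 5 shuttle and segregase genes and 74 genes with RING, kelch or BTB names. Their medians in hybrids against SD were log2 -0.17, -0.21, -0.62 and -0.24 in that order, beside -0.37 for the 184 members and 0.02 for all features. At an unadjusted p under 0.05 in that comparison, the proteasome had 1 higher and 1 lower, the modifiers 0 and 1 and the shuttles 0 and 1. The RING, kelch and BTB names had 2 and 12 (2.7% and 16.2%), where 12% and 7.09% of all features did so. In SD against SCN the medians were 0.17, 0.15, 0.31 and 0.17, where the members had 0.52 and all features 0.23.

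Genes known from the germ line and from dividing cells leaned in the same direction as the members. The 18 germline marker contigs (nanos, vasa, piwi, tudor and synaptonemal names) summed to 1644 to 2353 RPKM in hybrids, 3190.1 to 3809.7 RPKM in SD and 2076 to 2622 RPKM in SCN, with 1 of 18 above 0 in hybrids against SD and a median of log2 -0.65. The 14 cell division markers summed to 643 to 981 RPKM in hybrids, 1109 to 1344 RPKM in SD and 779 to 939 RPKM in SCN, also with 1 above 0 and a median of -0.47. The 86 cuticle names went the opposite way, at 29349 to 53004 RPKM in hybrids, 10816 to 26576 RPKM in SD and 10876 to 22723 RPKM in SCN, with 16 called higher in hybrids than in SD, where 1.52% of all features were. No marker of these lists was at 0 reads in all libraries. The 9 yolk names had a median of log2 0.74 in hybrids against SD, with 6 above 0. The 36 sperm and cilia names had a median of -0.12, with 15 above 0, and the 40 muscle names one of 0.02, with 22 above 0. Of all features, 51.3% were above 0, with a median of 0.02. In the crosses, germline and cell division markers had medians of log2 0.31 and 0.32, with 17 of 18 and 14 of 14 above 0, again in the direction of the members. Yolk, sperm and cilia, and muscle names were at 0.06, 0.08 and -0.21, where the median feature was at 0.05. The part of these cell types and stages in the results on the members was not tested.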

How the data were processed

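PolyA RNA of pooled whole copepods was sequenced in 9 libraries, and the authors deposited 1 RPKM value per feature and library, per the file headers. In all there were 13758 features, each a matched SD and SCN contig or, for a few, a mitochondrial gene. The sources used here do not give the aligner, the counting, any filter or which contigs served as target for which library, so that population differences in alignment and in RNA cannot be told apart. Groups follow the titles. The members and lists were chosen with earlier results of these data known, and roles were given by hand from predicted names.

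Limma 3.58.1 in R 4.3.3 was fitted to log2(RPKM + 1) with a mean-variance trend and 4 group means over all 9 libraries, which understates changes of low features. The 5 comparisons were hybrids against midparent, against SD and against SCN, SDf x SCNm against SCNf x SDm, and SD against SCN, each with a Benjamini-Hochberg adjusted p over 13758 features and a threshold of 0.05. Features needed a mean of at least 1 RPKM. Named members were those called in any comparison, the 5 with the smallest unadjusted p on each side of every comparison, the most abundant of each role, the 3 most abundant of all, and every E1 and cullin; members named outside this rule are marked as such, and 1 member that the rule names is not reported here.

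Values fell on steps worth 1 read: whole reads were recovered for 13741 features (99.88%), with 99.98% of values within 0.05 read of a whole number, and each library also held an added constant of 1.12 to 18.4 reads. These reads gave depth and fed voom, an alternative that called 430 features in hybrids against SD. The lengths implied, 91.6% of them multiples of 3, are coding lengths. Replicates of a group differed by more than sampling noise (chi-square over features 13.7 to 71.6 per feature). The recovery and the fit were tested on simulated data. Figures were drawn with matplotlib 3.10.9. No contig identifier matched the available RefSeq gene table, so no sequence or coordinate is given.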

Additional observations from a re-analysis of the deposited data

Results flagged for a closer look

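F-box SPRY domain protein 1 (Contig8666) had 13.98 RPKM in SDf x SCNm replicate 1, beside 10.2 RPKM in SDf x SCNm replicate 2 and 9.64 and 9.74 RPKM in SCNf x SDm. This library stood apart from the other 3 hybrid libraries by more than Dixon's 95% critical ratio allows. Of 45 named members tested in this way, this was the only 1, and chance alone gives about 1 in 20.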

How the results depend on the processing

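Leaving out 1 library at a time gave 0 to 35 called members for hybrids against midparent, 0 to 23 for hybrids against SD, 0 to 53 for hybrids against SCN, 0 to 57 for SD against SCN and 0 to 0 between the crosses; the highest counts came without SCN replicate 1, and for hybrids against SD equally without SCN replicate 2. The fits with the highest counts kept 1 SCN library, and calls in them rose over all features too. Their counts are therefore not read as results on the members. The gap between the median member and the median feature was also followed over all fits without 1 library. In the same order of comparisons it ran from -0.41 to -0.19, -0.44 to -0.37, -0.39 to -0.040, 0.064 to 0.32 and 0.08 to 0.16. Against the midparent, quantile normalization, voom on recovered reads and leaving out both libraries of the second shared parental run gave 1 called member each. For hybrids against SD the replicate block gave 0, leaving out that run gave 7, and taking off the added constant, an alternative chosen after seeing the data, gave 1. For SD against SCN, quantile normalization, run as a block and leaving out that run gave 1 each. Leaving out that run left 1 SCN library, and its counts are not read as results on the members. For hybrids against SD it raised calls over all features too. Of all features, quantile normalization and voom called 1.24% and 1.14% against the midparent. For hybrids against SD the replicate block called 0.225% and the fit without the constant 0.902%, against 1.6% in the main fit. For SD against SCN, quantile normalization and run as a block called 0.691% and 1.17%. Replicate numbers did not pair the samples, with correlations of same-numbered deviations from -0.55 to 0.36. The replicate block's count of 0 is given for completeness. A crossed pairing of the hybrid libraries (r of 0.55), also chosen after seeing the data, gave 0 members between the crosses. Signs turned in 2 of 50 named results: Contig7782 between the crosses was at 0.19 with run as a block and without SDf x SCNm replicate 1, and Contig2110cap was at 0.056 in those fits; leaving out 1 library at a time gave -0.69 to 0.19 for Contig7782 and -0.62 to 0.20 for Contig2110cap. The cause was not tested. Of 1030 fits of named results, 5 turned the direction. Counts of calls lost or gained among these named results are not given, since some of these fits left 1 library in a group. Depth limits low members most in SD replicate 3 and SCN replicate 2, where 22 and 20 members held under 10 reads.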
